A study of Mus musculus with 12 samples.

Results

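The choroid plexus of the mouse was compared between the embryonic day labelled E12.5 and 6 months of age (A6m), the first and the last age of a developmental series of RNA sequencing libraries. The genes described are the autosomal ones with at least 1 TPM in at least 3 of the 6 libraries, and 15351 of the 52459 gene symbols in the table met that rule. TPM is a transcript abundance adjusted for transcript length and scaled to the same sum in every library. Of these genes, 12982 are protein coding, and a position on an autosome came from the GENCODE M21 annotation for 99.2% of them. A further 559 X-linked, 9 Y-linked and 25 mitochondrially encoded genes, 314 symbols of unknown chromosome and 1 with an ambiguous position passed the level but were left out. The emphasis is on genes that were switched fully on or fully off over the span.

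Both groups are choroid plexus of B6 mice with no treatment or engineered allele named, and each age has 3 libraries. Tissue went into Trizol directly after dissection, and total RNA was made into libraries with a Kapa mRNA HyperPrep kit and read as paired ends of 100 bp. The design text speaks of independent specimens for each datapoint, and the labels give neither sex, ventricle, pooling of animals nor batch. Libraries of newborn (P0) and 14-day-old (P14) choroid plexus, 3 each, are used for the time at which a gene changed. Where a specimen was not a separate animal, the p-values measure only the spread between these samples.

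The choroid plexus is a sheet of epithelium folded around a vascular stroma in the ventricles of the brain. Its epithelium secretes most of the cerebrospinal fluid, moves ions, water and solutes between blood and fluid, and releases carrier proteins such as transthyretin. It arises at the dorsal midline of the neural tube from roof plate, a signalling tissue that makes Wnt and BMP ligands, and its early cells carry many cilia. The embryonic circulation holds nucleated red cells with embryonic globins, which are later replaced by cells with adult globins. RNA of the whole tissue was measured, so fewer cells of a type and less RNA per cell cannot be told apart.

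Of the 15351 genes, 13153 reached 1 TPM in libraries of both ages, 1881 only at E12.5 and 317 only at A6m. Pearson's r of log2(TPM + 1) between libraries across genes, a description, was 0.964 to 0.97 within E12.5, 0.981 to 0.982 within A6m and 0.738 to 0.766 between the ages. In E12.5 replicate 1, 9.31% of all TPM belonged to the ribosomal RNA-associated feature Mir6236, where replicates 2 and 3 had between 1.79% and 2.05%, and A6m had 0.816% to 1.27% at A6m. Mitochondrially encoded transcripts took 11.2% to 17.7% of TPM at E12.5 and 31.3% to 34.0% at A6m. Transthyretin (Ttr) took 1.12% to 2.1% at E12.5 and 13.7% to 14.6% at A6m, and the globins took 5.55% to 6.26% and 0.0148% to 0.0563%. Because TPM has a fixed sum, such shifts move every other gene, and the comparison was therefore made both as deposited and after median-of-ratios scaling.

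By limma on log2(TPM + 1) with Benjamini-Hochberg adjustment at 0.05, 12417 genes (80.9%) were called as deposited, 2431 (15.8%) higher and 9986 (65.1%) lower at A6m. After scaling, 11557 (75.3%) were called, 5728 (37.3%) were higher and 5829 (38%) lower, so that the share of higher calls was 19.6% as deposited and 49.6% after scaling. Every A6m library lay above every E12.5 library in 2458 genes (16%) and below in 9910 (64.6%), 80.6% in all. The median log2 difference over all genes was -0.76 as deposited and -0.02 after scaling. In all, 8260 genes (53.8%) were called with the same sign on both scales, 2431 higher (15.8%) and 5829 lower (38%), and 1264 genes were called lower as deposited but higher after scaling. "Rose" and "fell" are used below only of genes called on both scales, and 15.8% and 38% are the shares over all genes. A gene that reached 1 TPM at only 1 of the ages passed through the age where it is high and had to differ, so a list count that includes such genes supports nothing by itself. For the larger lists the count is therefore repeated over the members with 1 TPM in libraries of both ages, for which the shares over all 13153 such genes were 16.1% higher and 31.0% lower. Among the 11572 genes with at least 1 TPM in all 6 libraries, 1888 rose and 3643 fell, and 76 rose and 109 fell by at least 8-fold.

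**Figure D1:**
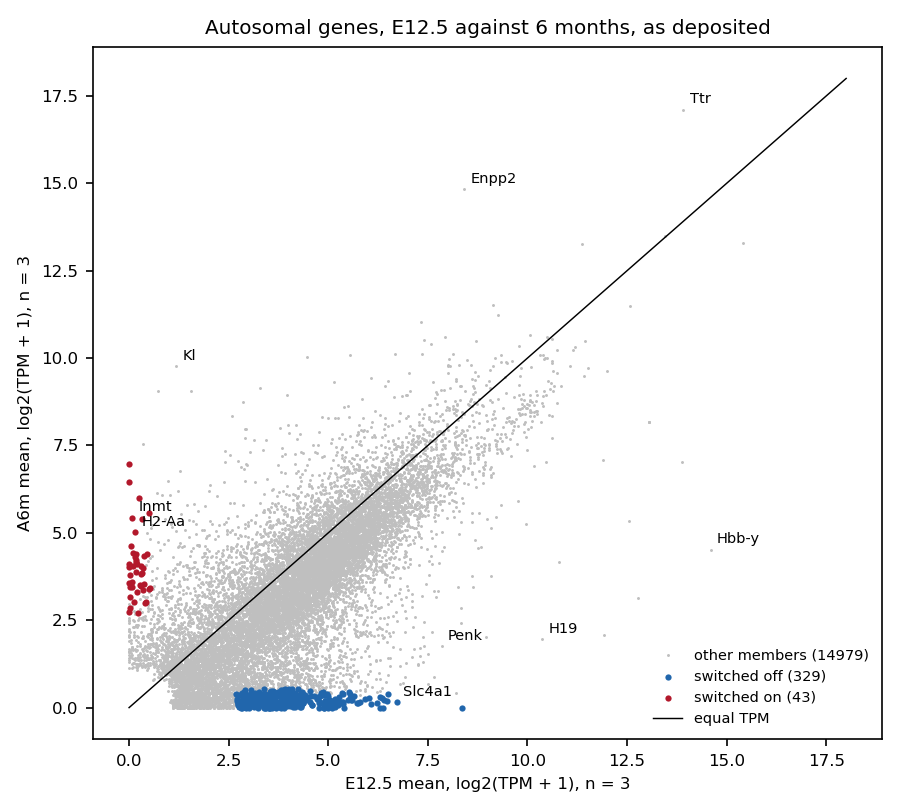
Mean log2(TPM + 1) of each gene at E12.5 (horizontal axis) and at A6m (vertical axis), as deposited, each point a gene and each mean taken over 3 libraries. The 43 genes switched on lie along the left edge and the 329 switched off along the bottom edge, and most of the cloud lies below the diagonal, as its median log2 difference of -0.76 gives.

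A gene was taken as switched on when every E12.5 library was under 0.5 TPM and every A6m library at 5 TPM or more, and as switched off in the reverse case. By this rule 43 genes (0.28%) were switched on and 329 (2.14%) switched off. All 43 met the rule also after scaling, under which 81 genes did so, while 192 of the 329 switched off met it after scaling. Switched-off genes named below that met it only as deposited include Mki67, Hsd3b6, Notch3, Sox7, Trac, Tnnt3, Cbx2, Epb42, Kif20a, Aurkb, Cenpf, Klk4 and Ms4a4a. Of those switched on, 33 are protein coding, and of those switched off, 280. These levels chose the genes, so they are given as a description and without a test, whereas the levels at P0 and P14 were not used by the rule. At the edge of the rule, Mc3r had a lowest A6m library of 5.04 TPM and Map3k21, just outside, of 4.82 TPM. On the other side, the lowest E12.5 library was 5.04 TPM for Spaca1, just inside, and 4.97 TPM for Gja5, just outside. Of the 305 switched-off genes with a value above 0 in some A6m library, A6m replicate 3 was the highest adult library in 170, replicate 1 in 86 and replicate 2 in 49, and without replicate 3 the rule took 403 genes as switched off in place of 329.

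Genes switched on included enzymes of methyl group, sulphate and lipid metabolism. Inmt, which methylates indoleamines and other small amines, read 0, 0.071 and 0.0792 TPM in the 3 E12.5 libraries and 44.8, 21.9 and 60 TPM in the A6m libraries. The adult libraries differed among themselves by more than 2-fold, yet the lowest of them lay far above every embryonic value. Chdh, a mitochondrial enzyme that oxidizes choline towards betaine, read 0.116, 0.0764 and 0.114 TPM at E12.5 and 20.6, 19.6 and 16.3 TPM at A6m. Gnmt, which uses S-adenosylmethionine to methylate glycine, read 0, 0.405 and 0 TPM at E12.5 and 15.6, 19 and 15.8 TPM at A6m. Its highest level was at birth, with 33.2, 40.8 and 37.2 TPM at P0, above all libraries of both later ages.

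A pair of cytosolic sulphotransferases on chromosome 17, Sult1c2 (53829637 to 53846339, GRCm38) and Sult1c1 (53961615 to 53990674), came on late. Sult1c2 was listed at 0 in all 3 E12.5 libraries, read 0.894, 1.06 and 1.45 TPM at P14 and reached 18, 15.3 and 15.8 TPM at A6m. Sult1c1 read 0, 0 and 0.0734 TPM at E12.5, 0.0336, 0 and 0.316 TPM at P14 and 8.06, 7.6 and 8.16 TPM at A6m. For both, the adult libraries stood apart from those of every earlier age. In the list of conjugation and detoxification genes, 16 of 29 members rose and 6 fell (10 and 4 of the 21 present at both ages). Ephx1, an epoxide hydrolase, rose from 6.47 ± 0.861 to 252 ± 15.5 TPM (SD, n = 3 each; log2 difference 5.08, SE 0.09, limma adjusted p = 1.49e-11), and the retinoic acid hydroxylase Cyp26b1 and the cytochrome P450 Cyp1b1 were among those that fell.

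Cidea, a lipid droplet protein known from brown fat, read 0.0755, 0.055 and 0.224 TPM at E12.5 and 17.9, 16.6 and 18.1 TPM at A6m. Sgpp2, a phosphatase of sphingosine 1-phosphate, read 0.08, 0.153 and 0.199 TPM at E12.5 and 17, 14.6 and 16.7 TPM at A6m. B4galnt3, a glycosyltransferase that adds N-acetylgalactosamine to glycans, read 0.0796, 0.14 and 0.163 TPM at E12.5 and 22.3, 15.6 and 22.2 TPM at A6m. Its P14 libraries, at 0.0833, 0.126 and 0.029 TPM, overlapped the embryonic ones. Nat8f3, of the Nat8 family of acetyltransferases, went from a mean of 0.065 TPM to 20.3 TPM, but it has close copies, so the assignment of its reads is uncertain.

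Several of the genes switched on encode transporters and surface proteins. Slc5a5, the sodium iodide symporter, read 0.0458, 0.0665 and 0.0901 TPM at E12.5, 8.12, 9.89 and 9.42 TPM at P0 and 17.1, 14.9 and 15.1 TPM at A6m. Slc24a4, a potassium-dependent sodium and calcium exchanger, read 0.24, 0.194 and 0.232 TPM at E12.5 and 16.4, 15.1 and 15.7 TPM at A6m, with 12, 14.7 and 13.8 TPM already at P0. Both had thus left the embryonic range at birth. Paqr5, a membrane progestin receptor, read 0.306, 0.37 and 0.456 TPM at E12.5 and 20.6, 18 and 21.9 TPM at A6m. Tmprss11a, a membrane serine protease, read 0.197, 0.283 and 0.294 TPM at E12.5 and 41, 42.6 and 39.3 TPM at A6m, and Mc3r, a melanocortin receptor, 0.0623, 0 and 0 TPM and 6.08, 5.04 and 7.4 TPM. In each of these the adult libraries kept within a narrow range of one another.

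Igfn1, a protein with immunoglobulin and fibronectin type III domains, read 0, 0.00515 and 0.0814 TPM at E12.5 and 24.8, 21 and 24.6 TPM at A6m. Some further genes met the rule that lie outside the choice of the most abundant ones and were picked after their values were seen. Tlx2, a homeobox factor, read 0.0585, 0.0416 and 0.0575 TPM at E12.5, 0 in all libraries of P0 and P14, and 11.2 ± 1.51 TPM at A6m (SD, n = 3). Ceacam16, a secreted adhesion protein known from the inner ear, read at most 0.12 TPM in any library before A6m and 18.6, 11.1 and 8.96 TPM at A6m. Sfrp5, a secreted inhibitor of Wnt signalling, read 0, 0.0281 and 0 TPM at E12.5, 5.37, 4.58 and 4.79 TPM at P0 and 11.7, 9.24 and 8.75 TPM at A6m.

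Antigen presentation genes formed a second group. H2-Aa, the alpha chain of the class II molecule I-A, read 0.168, 0.172 and 0 TPM at E12.5, 0.726, 0.522 and 0.659 TPM at P14 and 32, 21.5 and 41.5 TPM at A6m. H2-Eb1, the beta chain of I-E, read 0.295, 0.164 and 0.432 TPM at E12.5, 0.664, 0.285 and 0.49 TPM at P14 and 17.8, 13.8 and 26.4 TPM at A6m. In both genes the A6m replicates kept the same order, with replicate 2 the lowest and replicate 3 the highest. Of the 9 measured genes of class II presentation, 5 rose (H2-Aa, H2-Ab1, H2-Eb1, H2-DMb1 and Cd74) and 2 fell (Cd86, a costimulator, and Clec9a, a receptor of dendritic cells). Only 5 of the 9 were present at both ages, of which 3 rose and none fell. The direction of the other 4, Cd86 and Clec9a among them, was fixed by the age at which they passed the level. Cd74, the invariant chain, rose from 0.871 ± 0.264 to 41.3 ± 14.4 TPM (SD, n = 3 each; log2 difference 4.45, SE 0.26, limma adjusted p = 4.17e-08).

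The promoter windows of the 2 switched class II genes, from 250 bases before to 50 after the RefSeq start in GRCm38.p6, are shown because CTGATTGG, the letters of the Y box known from class II promoters, lies in both. It is capitalised, and either strand was searched. These letters lie in 4.7% of the 27025 genes with such a window, and they contain ATTGG, the reverse complement of CCAAT.
H2-Aa (chr17:34287774-34288073, minus strand): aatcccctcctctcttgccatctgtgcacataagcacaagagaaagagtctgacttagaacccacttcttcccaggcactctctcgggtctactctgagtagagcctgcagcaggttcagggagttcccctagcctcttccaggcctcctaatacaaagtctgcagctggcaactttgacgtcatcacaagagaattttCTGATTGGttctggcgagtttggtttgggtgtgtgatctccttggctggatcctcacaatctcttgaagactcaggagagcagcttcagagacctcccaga
H2-Eb1 (chr17:34305617-34305916, plus strand): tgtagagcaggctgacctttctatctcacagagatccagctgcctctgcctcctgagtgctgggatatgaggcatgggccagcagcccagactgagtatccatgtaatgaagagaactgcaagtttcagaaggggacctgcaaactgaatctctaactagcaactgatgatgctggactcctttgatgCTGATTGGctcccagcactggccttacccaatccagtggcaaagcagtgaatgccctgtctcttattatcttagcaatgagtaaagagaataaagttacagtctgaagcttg

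Markers of the immune cells that carry class II did not all move with these genes. Of 18 measured markers of resident macrophages, none rose and 16 fell (13 of the 15 present at both ages), and their summed level was 451 to 532 TPM at E12.5 and 48.2 to 76.1 TPM at A6m. Mrc1, the mannose receptor, fell from 40.2 ± 5.26 to 1.21 ± 0.511 TPM (SD, n = 3 each; log2 difference -4.23, SE 0.19, limma adjusted p = 4.68e-09). Lyve1, a hyaluronan receptor of macrophages and lymphatic vessels, was switched off, from 11.1, 15.5 and 11.3 TPM to 0.164, 0.134 and 0.0604 TPM. The part of such cells in the class II levels was not tested.

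Immunoglobulin kappa features on chromosome 6 were also switched on. Igkj3, a joining segment of 38 bases at 70723223 to 70723260, was listed at 0 in all E12.5 libraries and at 160, 106 and 107 TPM at A6m. Igkc, the constant exon at 70726435 to 70726966, read 0.231, 0.171 and 0.225 TPM at E12.5 and 10, 10.9 and 10.5 TPM at A6m, and it had reached 8.04, 11.7 and 9.1 TPM at P14. TPM of a segment shorter than a read rests on a small effective length, and its level cannot be set against that of longer genes. Of the 26 listed lymphocyte and plasma cell genes, only 5 passed the level, of which Igkc rose and Trac, Lck, Cd79b and Ighm fell. Only Ighm was present at both ages, so the direction of the other 4 was fixed by the age at which they passed. Cd79a, the signalling chain of the B cell receptor, was listed at 0 in all 3 A6m libraries, and Jchain was at most 0.379 TPM there.

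Genes of the interferon response rose widely, though none of the list was switched. Of 24 measured members, 18 rose and none fell (16 of the 22 present at both ages rose), and their summed level went from 150 to 197 TPM at E12.5 to 1060 to 1490 TPM at A6m. Ifi27, a mitochondrial interferon-induced protein, rose from 8.73 ± 0.933 to 563 ± 51.8 TPM (SD, n = 3 each; log2 difference 5.86, SE 0.12, limma adjusted p = 3.87e-11). Ifit1, which binds foreign RNA, read 0.848, 0.491 and 0.797 TPM at E12.5 and 34.5, 17.1 and 14.1 TPM at A6m, and A6m replicate 1 was the highest. Ifit1 passed the level of 1 TPM at A6m only, which fixed its direction. Tgtp1, an interferon-induced GTPase outside the list, was switched on, from 0.32, 0.118 and 0.114 TPM to 72, 57.2 and 58.5 TPM, with a near-identical copy, Tgtp2, beside it in the genome that leaves its reads uncertain.

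**Figure D2:**
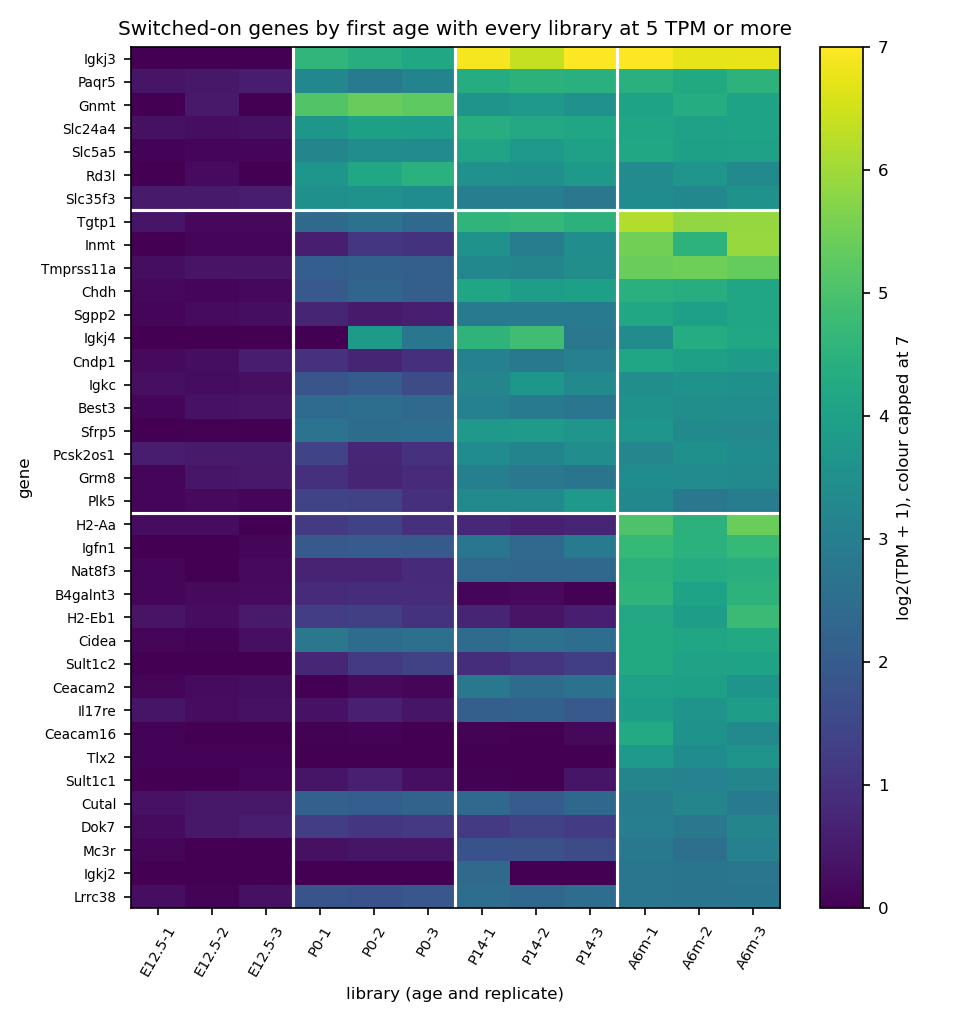
Log2(TPM + 1) in each of the 12 libraries (columns, by age) for the switched-on genes that carry a gene name (rows), with a colour scale capped at 7. Rows are ordered by the first age with every library at 5 TPM or more, which was P0 for Slc5a5, P14 for Chdh and A6m for Tlx2.

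The levels at P0 and P14 place the switches in time. Of the 43 genes switched on, 9 were at 5 TPM or more in every P0 library and 24 in every P14 library, and the median gene stood at 10.9% of its A6m level at P0 and 40.0% at P14. At P14, 8 genes were still under 10% of their A6m level: H2-Aa, H2-Eb1, B4galnt3, Sult1c1, Sult1c2, Ceacam16, Tlx2 and the unnamed model Gm25252. Of the 329 switched off, 29 were under 0.5 TPM in every P0 library and 136 in every P14 library, and none was still at 5 TPM or more in all P14 libraries. The median switched-off gene stood at 14.8% of its E12.5 level at P0 and at 3.32% at P14. A small set of 6 genes had a higher mean at P0 than at E12.5, with overlapping libraries in several. In Klk4 and the unnamed model 4933428C19Rik the groups lay apart. Klk4 is a secreted protease and read 5.33, 6.87 and 8.33 TPM at E12.5, 89.2, 95.7 and 97.4 TPM at P0 and 0.0404, 0.301 and 0.118 TPM at A6m. Klk4 was chosen after its values were seen.

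**Figure D3:**
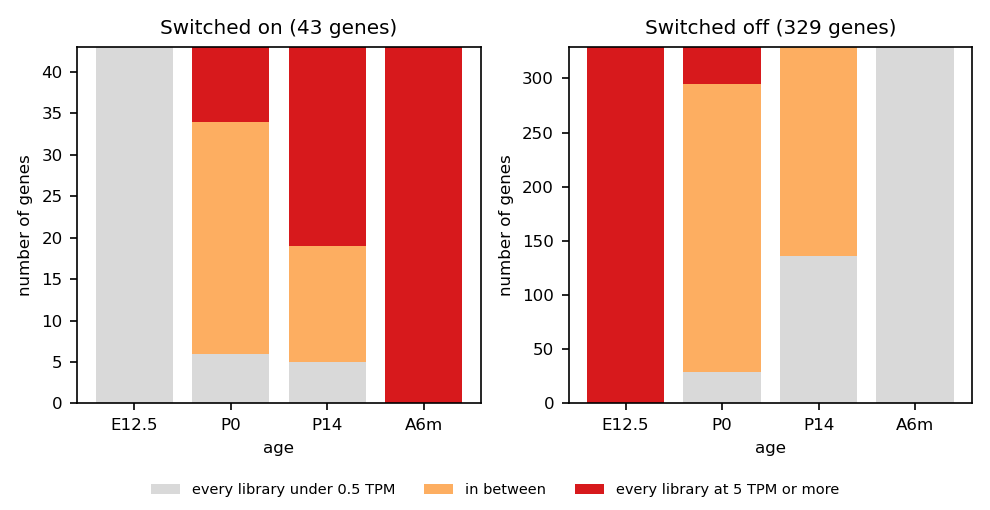
Number of genes switched on (43) and switched off (329) that were under 0.5 TPM in all libraries, at 5 TPM or more in all libraries, or between, at each of the 4 ages. The bars of E12.5 and A6m are fixed by the rule, and at P14, 24 of the 43 switched-on genes were at 5 TPM or more and none of the 329 switched-off genes was.

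Cell cycle genes were the largest list in which every measured member fell. All 42 measured members of the proliferation list fell, and 11 were switched off. For 24 of them the level of 1 TPM was reached at E12.5 only, which fixed their direction, and the 18 present at both ages all fell. Their median log2 difference was -4.51 as deposited and -3.93 after scaling, and their summed level went from 2280 to 2490 TPM at E12.5, through 413 to 435 TPM at P0 and 161 to 177 TPM at P14, to 119 to 139 TPM at A6m. Mki67, a chromosome surface protein of cycling cells, read 85.8, 101 and 80.7 TPM at E12.5 and 0.162, 0.374 and 0.401 TPM at A6m, and after scaling it was no longer under 0.5 TPM in every adult library. Ccnb2, a mitotic cyclin, read 61.6, 63.2 and 54.4 TPM at E12.5 and 0.0798, 0.306 and 0.156 TPM at A6m. Plk1, a mitotic kinase, read 31.3, 38.5 and 26.2 TPM at E12.5 and 0.272, 0.0787 and 0.11 TPM at A6m.

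Outside the list, Racgap1, a regulator of cytokinesis, read 58.5, 68.7 and 66.4 TPM at E12.5 and 0.302, 0.13 and 0.208 TPM at A6m, and Nusap1, a spindle protein, 48.5, 55.9 and 41.9 TPM and 0.203, 0.239 and 0.322 TPM. The other switched members of the list were Aurkb, Bub1, Kif20a, Cenpf, Ndc80, Tk1, E2f8 and Esco2, whose products act in mitosis, nucleotide supply, cell cycle transcription and sister chromatid cohesion. Mki67, Ccnb2, Plk1, Racgap1 and Nusap1 were each already under 10 TPM in every P0 library.

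The windows of 3 of these genes are shown because the cell cycle homology region, with the letters TTTGAA, and the CCAAT box are known from promoters of genes of late cell cycle phases. Capitals mark TTTGAA and CCAAT on either strand, from 250 bases before to 50 after the RefSeq start in GRCm38.p6. Of the proliferation list, 34 genes (81%) had a window, of which 15 (44.1%) held TTTGAA and 24 (70.6%) held CCAAT, compared with 20.2% and 41.1% of the 27025 genes with a window. These matches are a description of the letters and no measurement of binding.
Mki67 (chr7:135716330-135716629, minus strand): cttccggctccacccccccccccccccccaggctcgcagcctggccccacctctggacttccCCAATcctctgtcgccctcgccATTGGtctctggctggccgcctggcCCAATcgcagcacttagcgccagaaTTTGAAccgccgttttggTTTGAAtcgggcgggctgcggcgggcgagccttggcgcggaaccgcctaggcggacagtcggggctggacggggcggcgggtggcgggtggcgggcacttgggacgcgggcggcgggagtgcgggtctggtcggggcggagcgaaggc
Plk1 (chr7:122159185-122159484, plus strand): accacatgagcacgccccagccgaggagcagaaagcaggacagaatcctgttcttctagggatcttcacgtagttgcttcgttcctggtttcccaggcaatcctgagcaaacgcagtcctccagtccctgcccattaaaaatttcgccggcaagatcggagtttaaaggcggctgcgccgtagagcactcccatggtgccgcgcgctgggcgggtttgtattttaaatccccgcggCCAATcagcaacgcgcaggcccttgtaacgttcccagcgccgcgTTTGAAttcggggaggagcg
Ccnb2 (chr9:70421505-70421804, minus strand): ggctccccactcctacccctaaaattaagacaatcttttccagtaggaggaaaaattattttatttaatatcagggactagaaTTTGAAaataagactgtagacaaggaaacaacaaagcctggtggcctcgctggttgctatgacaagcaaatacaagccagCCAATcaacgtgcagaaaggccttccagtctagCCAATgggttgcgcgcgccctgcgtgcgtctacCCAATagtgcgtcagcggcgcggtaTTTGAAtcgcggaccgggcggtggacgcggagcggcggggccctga

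Oncofetal RNA-binding and chromatin genes fell in 17 of 21 measured cases and rose in 3 (Nr6a1, Ezh1 and Dlk1), and of the 10 present at both ages 6 fell. Hmga2, a chromatin architectural protein of embryonic cells and a let-7 target, read 84.4, 74.5 and 63.7 TPM at E12.5 and 0.0441, 0.0487 and 0.177 TPM at A6m. It had already dropped to 0.857, 0.726 and 0.982 TPM at P0. Igf2bp3, which binds Igf2 and other mRNAs, read 52.8, 55.2 and 54.8 TPM at E12.5, 11.2 to 13.5 TPM at P0 and 0.0574, 0.0503 and 0.252 TPM at A6m. Crabp1, a carrier of retinoic acid, and Cbx2, a Polycomb subunit, were switched off as well. Of the catalytic subunits of Polycomb complex 2, Ezh2 fell from 87.3 ± 6.56 to 4.24 ± 1.04 TPM and Ezh1 rose from 14.4 ± 4.97 to 23.6 ± 2.12 TPM (SD, n = 3 each; limma adjusted p = 5.77e-10 and 0.0068), and the groups overlapped in neither.

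In the imprinted growth network, 17 of 22 measured genes fell and 2 rose, Dlk1 and Dcn (15 and 2 of the 20 present at both ages). H19, a maternally expressed noncoding RNA, fell from 1270, 1490 and 1210 TPM to 1.24, 1.83 and 5.61 TPM (log2 difference -8.57, SE 0.32, limma adjusted p = 1.15e-09). The level of its neighbour Igf2 was 1080 ± 16.9 TPM at E12.5 and 862 ± 46.6 TPM at A6m (SD, n = 3 each), called lower as deposited and higher after scaling. Slc38a4, an amino acid transporter, was switched off, from 44, 38.2 and 38.3 TPM to 0.0386, 0.0283 and 0.169 TPM.

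Among roof plate and neural progenitor genes, 3 ligands were lost by birth. Wnt1, a ligand of the dorsal midline, read 16.2, 21.3 and 13 TPM at E12.5 and 0.0942, 0.0521 and 0.0441 TPM at P0, and at A6m it was 0.0165, 0 and 0 TPM. Wnt3a read 14.3, 11.4 and 11.9 TPM at E12.5 and 0, 0 and 0.0873 TPM at A6m, and Fgf15 read 14.5, 21.2 and 15.5 TPM and 0, 0 and 0.143 TPM. In all 3 ligands every P0 library was already under 0.5 TPM. Shh, a ligand that supports growth of choroid plexus progenitors, followed later, with 15.5, 20 and 23.7 TPM at E12.5, 5.54, 5.92 and 6.14 TPM at P0 and 0.0679, 0.131 and 0.102 TPM at A6m. Rspo1, an enhancer of Wnt signalling, was switched off from a mean of 33.8 TPM, and Dkk2, a modulator of Wnt receptors, read 61.4, 52.5 and 41.5 TPM at E12.5 and 0.0723, 0 and 0.217 TPM at A6m.

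Of 30 measured roof plate and neural progenitor genes, 23 fell, 5 of them switched off, and 2 rose, the ligand Bmp6 and the homeobox gene Emx1. Only 15 were present at both ages, of which 9 fell and 1 rose. Lmx1a, a homeobox factor of the roof plate, was retained at 24.1 ± 0.597 TPM at A6m after 75.9 ± 12.3 TPM at E12.5 (SD, n = 3 each; log2 difference -1.6, SE 0.1, limma adjusted p = 4.37e-08). Slitrk6, a neuronal membrane protein outside the lists, read 67.9, 86 and 109 TPM at E12.5 and 0.105, 0.0827 and 0.24 TPM at A6m. The Hox cluster list had 12 measured members, of which 11 fell (all 6 of those present at both ages). Hoxb3 went from 9.04 ± 4.59 to 0.542 ± 0.0203 TPM (SD, n = 3 each). It passed the level of 1 TPM at E12.5 only, which fixed its direction. Neuronal markers fell in 8 of 10 cases and rose in 1, Syt1, and of the 6 present at both ages 4 fell and 1 rose. Their summed level was 85.7 to 330 TPM at E12.5 and 36.4 to 41.8 TPM at A6m, so that E12.5 libraries differed in it by more than 3-fold. The part of neural tissue in the levels of the roof plate genes was not tested.

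Genes of multiciliated cell fate fell in 14 of 17 cases and rose in none (8 of the 11 present at both ages fell), and 3 were switched off. Mcidas, a coactivator that starts the multiciliated programme, read 39.9, 32.3 and 38.8 TPM at E12.5, 4.4, 3.59 and 3.56 TPM at P0 and 0.0606, 0 and 0.0953 TPM at A6m. Ccno, a cyclin needed for centriole amplification, read 52.6, 40.9 and 48.1 TPM at E12.5 and 0.0741, 0.213 and 0.222 TPM at A6m. Foxj1, the factor that sustains motile cilia genes, fell but was retained, from 257, 262 and 300 TPM to 59.7, 61 and 59.5 TPM. The ependyma list, which shares cilia genes, had 4 members that rose and 6 that fell among 12 (3 and 6 of the 11 present at both ages).

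Mcidas and Ccno lie beside Cdc20b on chromosome 13, at 112993845 to 113000394 and 112987802 to 112990777, and Cdc20b, at 113035111 to 113091195, holds the hairpins Mir449a, Mir449b and Mir449c in an intron. Cdc20b read 292, 255 and 335 TPM at E12.5, 36.3, 35.5 and 26.6 TPM at P0 and 0.0644, 0.0324 and 0.881 TPM at A6m, where A6m replicate 3 kept it outside the rule. The feature Mir449c was switched off, from 13.3, 36.3 and 43.4 TPM to 0 in all P14 and A6m libraries, and Mir449b, from 446, 101 and 442 TPM, was listed at 0 in all A6m libraries. Both were chosen after their values were seen, and values of hairpin features in such libraries are no measurement of mature miRNAs. The mature sequences in RefSeq are shown for Mir449c and Mir451a, whose tissues are known, with the seed, bases 2 to 8, in capitals.
miR-449c-5p, of a family known from multiciliated cells: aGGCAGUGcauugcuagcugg
miR-451a, known from red cells: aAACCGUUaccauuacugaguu

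Red cell genes formed another switched-off group. All 8 globin genes fell (7 of them present at both ages), with a summed level of 55500 to 62600 TPM at E12.5 and 148 to 563 TPM at A6m. Hbb-y, an embryonic beta-like globin, read 28800, 20000 and 25500 TPM at E12.5 and 6.17, 3.56 and 56.2 TPM at A6m (log2 difference -10.96, SE 0.7, limma adjusted p = 7.57e-08). At P0 it was at 7.96, 6.49 and 6.47 TPM, while the adult globin Hba-a2 was still at 3940, 5050 and 2260 TPM there. A6m replicate 3 was the highest adult library for Hbb-y, Hba-x and Hbb-bh1, at 56.2, 21.3 and 8.38 TPM against at most 6.17, 1.45 and 0.814 TPM in the others.

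Of 16 measured erythroid genes, 14 fell, 1 rose (Tspan33) and 11 were switched off. Only 4 of the 16 were present at both ages, of which 2 fell and 1 rose, and the direction of the other 12 was fixed by the age at which they passed the level. Slc4a1, the anion exchanger band 3, read 104, 109 and 100 TPM at E12.5, 2.55, 2.97 and 1.1 TPM at P0 and 0.0348, 0.0285 and 0.263 TPM at A6m. Kel, a blood group glycoprotein, read 38.3, 62.3 and 56.9 TPM at E12.5 and 0, 0 and 0.313 TPM at A6m. Further switched members were Epor, Epb42, Rhag, Rhd, Tal1, Hemgn and Trim10, which encode the erythropoietin receptor, membrane proteins and regulators of red cells. Mir451a, the host feature of the sequence printed with the multiciliated genes, read 49.2, 19.2 and 31.8 TPM at E12.5 and 0 in all P14 and A6m libraries. Ppbp, a chemokine of platelets, was lost with them, from 98.4, 73.1 and 69.4 TPM to 0, 0.29 and 0.329 TPM.

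The window of Kel is shown because AGATAA, letters of a GATA factor motif, lies in it, as in 12.7% of the genes with a window. It is capitalised, searched on either strand, in the RefSeq window of GRCm38.p6.
Kel (chr6:41704276-41704575, minus strand): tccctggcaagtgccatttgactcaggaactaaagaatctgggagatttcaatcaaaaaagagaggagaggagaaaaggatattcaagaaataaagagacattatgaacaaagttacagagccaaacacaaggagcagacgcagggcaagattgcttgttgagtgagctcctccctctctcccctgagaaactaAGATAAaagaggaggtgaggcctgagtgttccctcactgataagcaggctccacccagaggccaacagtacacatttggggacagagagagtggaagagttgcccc

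**Figure D4:**
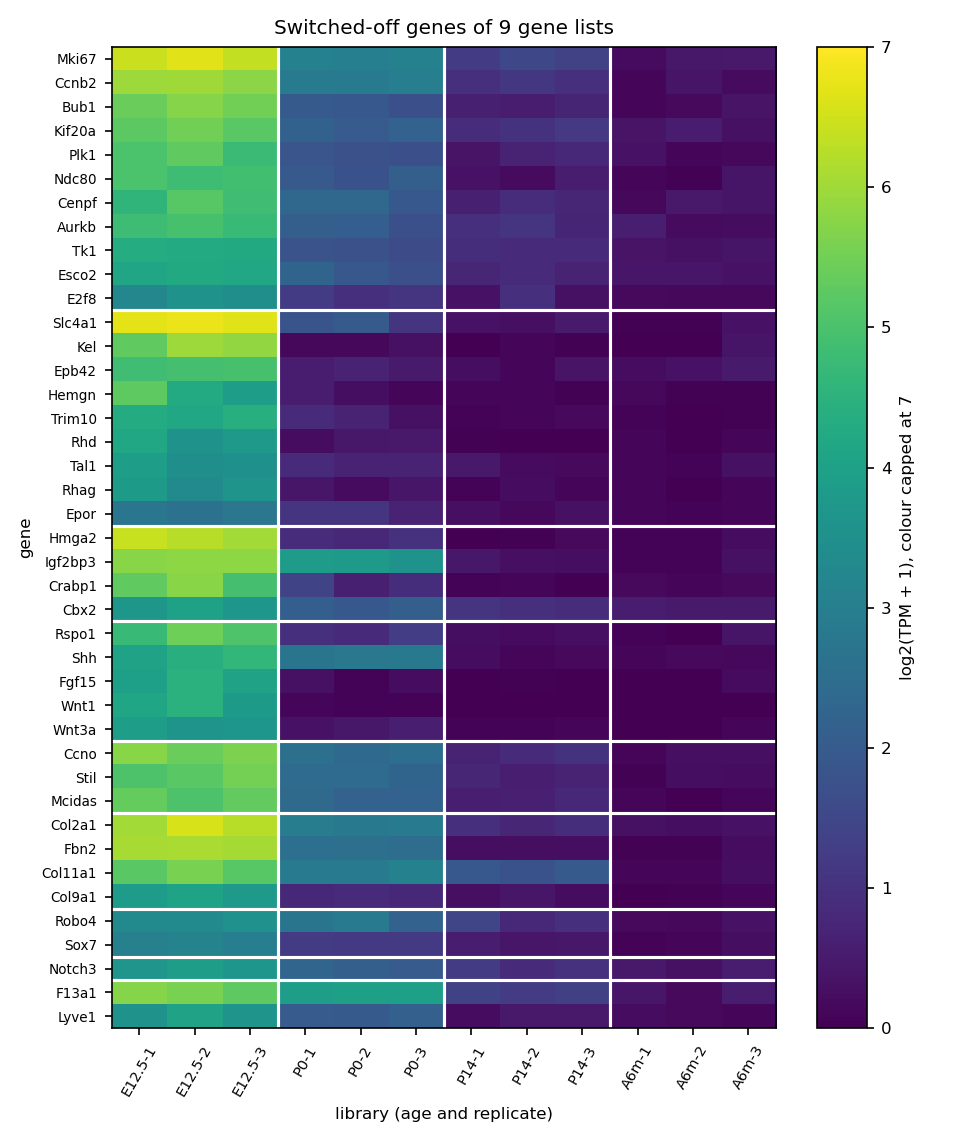
Log2(TPM + 1) in each of the 12 libraries (columns, by age) for switched-off genes of 9 gene lists (rows, by list), with a colour scale capped at 7. The E12.5 columns are high and the A6m columns near 0 by the rule, and the rows differ in what is left at P0, where Wnt1 is at most 0.0942 TPM and Igf2bp3 still reads 11.2 to 13.5 TPM.

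Vascular and stromal genes fell together. All 20 endothelial markers fell (13 of them present at both ages), with a summed level of 668 to 711 TPM at E12.5 and 34.3 to 56.6 TPM at A6m, and Robo4 and Sox7 were switched off. Robo4, a receptor of blood vessels, read 9.13, 9.22 and 10.7 TPM at E12.5, 5.57, 6.41 and 3.57 TPM at P0 and 0.128, 0.112 and 0.271 TPM at A6m. Cdh5, the cadherin of endothelial junctions, fell from 74.8 ± 6.34 to 2.67 ± 0.635 TPM (SD, n = 3 each; log2 difference -4.38, SE 0.14, limma adjusted p = 4.86e-10). Of 9 mural cell genes, 8 fell (all 6 of those present at both ages), and Notch3, a receptor of pericytes and smooth muscle, was switched off from 11.6, 14 and 11.9 TPM to 0.396, 0.234 and 0.462 TPM.

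Of 36 genes of stromal fibroblasts and matrix, 27 fell, 5 rose (Dcn, Eln, Mgp, Lepr and Ptgds) and 4 were switched off, and of the 29 present at both ages 20 fell and 5 rose. Col2a1, a collagen of cartilage and of embryonic epithelia, read 64, 94.3 and 75.6 TPM at E12.5 and 0.249, 0.19 and 0.268 TPM at A6m. Fbn2, a fibrillin of embryonic matrix, read 67.4, 67.5 and 65 TPM at E12.5, 4.86, 4.99 and 4.64 TPM at P0 and 0.0243, 0.0354 and 0.17 TPM at A6m. Col3a1, a fibrillar collagen, fell from 493 ± 50.1 to 3.09 ± 0.967 TPM (SD, n = 3 each; log2 difference -6.94, SE 0.16, limma adjusted p = 7.82e-11). Hsd3b6, a steroid dehydrogenase outside the lists, read 64.3, 91.1 and 94.7 TPM at E12.5, at most 0.0497 TPM at P0 and 0, 0 and 0.48 TPM at A6m, and it did not meet the rule after scaling.

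Other cell types were represented by few genes. Of 3 measured neutrophil and monocyte granule genes, 2 fell and none rose, and neither of the 2 was present at both ages. Prtn3, a granule protease, was switched off from 7.65, 7.97 and 10.3 TPM to 0.133, 0 and 0.133 TPM. Of 3 mast cell genes, Kit and Hdc fell and Gata2 rose, while Tpsab1 and Mrgprb2 were listed at 0 in all libraries of both ages. Among 13 glial and myelin genes 6 rose and 3 fell (3 and 3 of the 10 present at both ages). Among 8 muscle genes 3 rose and 3 fell, with Tnnt3 switched off, but of the 5 present at both ages 3 rose and none fell. The 3 that fell passed the level at E12.5 only, which fixed their direction. Of the pituitary and pineal list 2 genes were measured and both fell, 1 of them present at both ages. Trac, of the T cell receptor, was switched off from 16.6, 10.5 and 7.11 TPM to 0.255, 0 and 0.0635 TPM.

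Epithelial genes moved the other way and were mostly present at both ages. The labelled tissue carried 27 of its 29 measured epithelial markers at 1 TPM or more in libraries of both ages, with a summed level of 15700 to 27700 TPM at E12.5 and 182000 to 188000 TPM at A6m, in which Ttr dominated. Of the 29, 22 rose and none fell (20 of the 27 rose), and the median log2 difference was 3.13 as deposited and 3.98 after scaling. Kl, the coreceptor klotho, rose from 1.04, 1.14 and 1.66 TPM to 924, 846 and 827 TPM (log2 difference 8.58, SE 0.11, limma adjusted p = 1.44e-12), and it was at 49.1, 51.4 and 56 TPM at P0. Prlr, the prolactin receptor, went from 0.849, 0.604 and 0.552 TPM to 563, 532 and 515 TPM, its embryonic libraries just above the level taken as off. It passed the level of 1 TPM at A6m only, which fixed its direction. Otx2, a homeobox factor of choroid plexus, did not pass on both scales, at 356, 481 and 553 TPM and 412, 403 and 387 TPM.

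Among transport genes, 18 of 30 for ions and water rose and 6 fell, and 28 of 34 for organic solutes rose and 3 fell. Of those present at both ages, 17 of 26 and 24 of 29 rose. Atp1b1, a subunit of the sodium pump, rose from 45.3 ± 14.8 to 1080 ± 46.2 TPM (SD, n = 3 each; log2 difference 4.59, SE 0.19, limma adjusted p = 2.25e-09). Slc39a8, a zinc and manganese importer, went from 28.7 ± 2.89 to 0.489 ± 0.138 TPM (SD, n = 3 each) and passed the level of 1 TPM at E12.5 only, so no test is given for it. Slc35f3, a putative thiamine transporter, was switched on, with 0.412, 0.417 and 0.471 TPM at E12.5 and 9.61, 8.6 and 10.8 TPM at A6m. Hormone receptors and hormones were mixed, with 6 of 18 higher and 5 lower (4 and 3 of the 14 present at both ages). Ppp1r1b, a phosphatase inhibitor of dopamine signalling, rose from 1.95 ± 0.36 to 532 ± 18.9 TPM, and Penk, the enkephalin precursor, fell from 229 ± 60.8 to 2.41 ± 0.335 TPM after 659 ± 62.1 TPM at P0 (SD, n = 3 each).

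Among genes at 1 TPM or more in all 6 libraries, the largest changes were the rises of Kl, Ppp1r1b, Enpp2, Mt3 and Ifi27 and the falls of Hbb-y, H19, Hba-a1, Hba-a2 and Col3a1. Enpp2, autotaxin, which makes lysophosphatidic acid, rose from 262, 322 and 441 TPM to 30400, 29200 and 28000 TPM. Mt3, a metallothionein, rose from 4.44, 6.21 and 8.25 TPM to 422, 416 and 433 TPM, with 326, 296 and 293 TPM already at P0. In the antioxidant and metal list 8 of 16 rose and 4 fell (7 and 3 of the 14 present at both ages). Among complement genes 8 of 13 rose and 3 fell, and of the 7 present at both ages 5 rose and none fell. The 3 that fell, such as Masp1, a protease of the lectin pathway, passed the level at E12.5 only. Tissue isoforms of respiratory chain subunits rose in 7 of 11 cases and fell in 1, and of the 8 present at both ages 6 rose and none fell. Cox8b, an isoform of heart and brown fat, went from 0, 0 and 0.79 TPM to 161, 170 and 220 TPM. It passed the level of 1 TPM at A6m only, which fixed its direction. The embryonic library at 0.79 TPM kept it outside the rule for a switch.

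Heat shock and stress genes changed in both directions and depended on the scale. Of 31 measured members, 9 rose and 8 fell on both scales, with 9 higher and 19 lower as deposited and 16 higher and 8 lower after scaling. Of the 30 present at both ages, 9 rose and 7 fell. Cryab, a small heat shock protein, rose from 6.54, 6.98 and 6.46 TPM to 259, 246 and 246 TPM (log2 difference 5.04, SE 0.06, limma adjusted p = 1.05e-12). Cdkn1a, the cell cycle inhibitor p21, fell from 102 ± 14.3 to 8.39 ± 0.633 TPM (SD, n = 3 each; log2 difference -3.45, SE 0.11, limma adjusted p = 5.88e-10). Hif3a, a hypoxia factor, was the 1 member switched off, from 12.7, 22.2 and 20.1 TPM to 0.101, 0.0516 and 0.162 TPM, and it was still at 21.3, 15.2 and 15.6 TPM at P0. The inducible Hsp70 gene Hspa1a had means of 1.75 TPM and 2.02 TPM and was not called as deposited. Keratins and neurofilaments rose in 4 of 14 cases and fell in 7, but of the 6 present at both ages 2 rose and 2 fell. Nes, a filament of progenitors, went from 59.4 ± 7.03 to 0.673 ± 0.187 TPM (SD, n = 3 each) and passed the level of 1 TPM at E12.5 only, which fixed its direction.

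**Figure D5:**
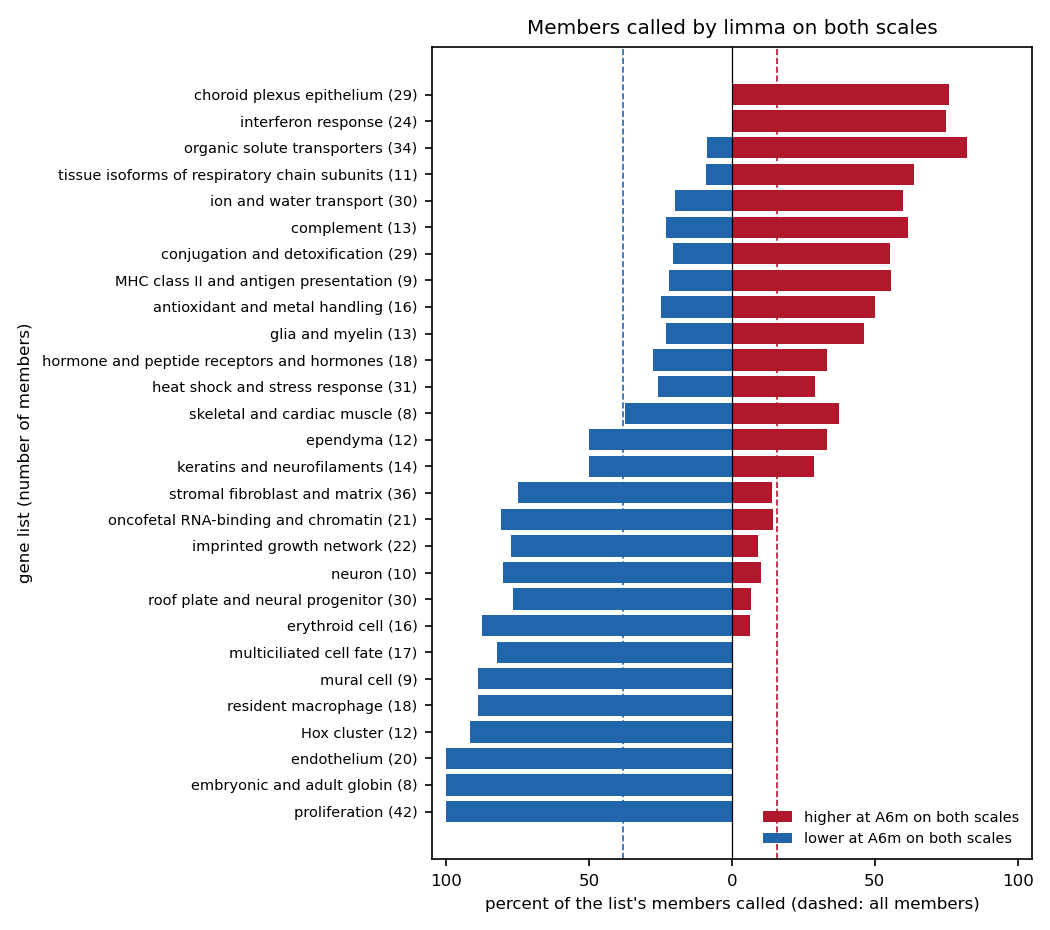
Percent of measured members (number in brackets) of the larger gene lists that rose (right) or fell (left) on both scales by limma. The contrast is A6m against E12.5, and dashed lines mark the shares over all genes, 15.8% and 38%. The lymphocyte and plasma cell, neutrophil and monocyte granule, mast cell, and pituitary and pineal lists had few measured members and are not drawn. Members that passed the level at 1 age only are included, and their direction was fixed by that. Proliferation, endothelium and globin lists lie wholly on the falling side, and epithelium and interferon lists have no member that fell.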

How the data were processed

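Choroid plexus RNA of 12 libraries was analysed, 3 each of E12.5, P0, P14 and A6m, with the contrast A6m against E12.5. The authors deposited TPM values, made with kallisto on GRCm38 per the submitters' processing notes, and the version and annotation are not given in the sources used here. A further 7 columns of the table were not used. The table holds no counts, which leaves sequencing depth unknown. No counting interval was set, and a value of 0 is called listed at 0. Values became log2(TPM + 1), so that differences of low genes are understated.

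Genes with at least 1 TPM in at least 3 of the 12 libraries, 17422 in all, were fitted as 4 age means with limma 3.58.1 in R 4.3.3 (trended prior, 8 residual degrees of freedom, two-sided, Benjamini-Hochberg adjustment over 17422). The same fit was made after median-of-ratios scaling. All counts are over the 15351 autosomal genes, and 88 of these were the same in every library as some other gene. With 3 libraries against 3, an exact permutation test of 1 gene cannot go below 0.1. Scripts were tested on simulated data. Figures and counts used Python 3.11.15 and matplotlib 3.10.9. Positions came from GENCODE M21 and sequences from RefSeq (GRCm38.p6).

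Named are the 15 most abundant switched genes per direction, up to 4 per gene list, the 5 largest changes per direction among genes at 1 TPM or more in all 6 libraries, and Ttr, Kl, Mki67, Hmga2 and Hbb-y, leaving out unnamed models and small RNAs; genes described beyond these were picked after their values were seen. A few genes are not reported here. The genes and the 32 lists were chosen with earlier results of these data known, so list counts are descriptions. Alternatives covered scaling, filters, pseudocounts, switch levels, left-out libraries and the replicate number as a block.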

Additional observations from a re-analysis of the deposited data

How the results depend on the processing

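Against 12417 genes called, 2431 of them higher and 9986 lower, scaling gave 5728 higher and 5829 lower, quantile normalization 5614 and 5923, and leaving out the 10 most abundant genes 3973 higher. A test against a 1.5-fold change called 7987 genes, with 1304 higher, and on both scales 4366, with 1304 higher and 3062 lower. Leaving out 1 library at a time gave 11907 to 12627 called (2242 to 2602 higher, 9526 to 10374 lower) and 7814 to 8340 on both scales (2242 to 2602 higher, 5572 to 5738 lower). Genes switched on numbered 43, and 81 after scaling, 6 at under 0.1 and at least 10 TPM, 78 at under 1 TPM, 6 when listed at 0, and 45 to 61 with 1 library left out. Genes switched off numbered 329, and 192, 28, 620, 24 and 341 to 403 in the same order. Each left-out library relaxes the rule by construction. Scaling turned 1264 genes from lower to higher, Igf2 among them. The 142 genes named by rule were mostly chosen as switched or as called on both scales with large changes. Their stability was thus largely fixed in advance. Among them, no direction changed under the alternatives, and Gata2, Tnni2 and Pomc lost their call, the first against a 1.5-fold change and the others also by quantile normalization. The cause was not tested. Without counts, depth sets no stated limit.

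The replicate numbers of the labels were tried as a block. The correlations of same-numbered libraries were -0.013, 0.045 and 0.041, under the limit for pairing, and with the block 12305 genes were called, 2399 higher and 9906 lower, and 8165 on both scales.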

Other observations

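The imprinted interval from Dlk1 to Mirg on chromosome 12 (109452823 to 109749460, GRCm38) held features that moved apart. It was chosen after the values were seen. Of 13 measured features there, 8 fell and 2 rose on both scales, where 38% and 15.8% of all genes did. In it 3 features were switched off and 1 was switched on. Among those that fell, 5 were listed at 0 in all A6m libraries, and Gm25252, which rose, at 0 in all E12.5 libraries. The direction of these was fixed by the age at which they passed the level. The maternally expressed noncoding RNA Meg3 fell from 180, 275 and 266 TPM at E12.5 to 26.5, 16.7 and 26.2 TPM at A6m, and Rian, the host of small nucleolar RNAs, from 277, 330 and 317 TPM to 33.9, 26.2 and 29.8 TPM (log2 differences -3.33 and -3.32, limma adjusted p = 8.74e-08 and 2.89e-10). The small nucleolar RNA DQ267102 was listed at 0 in all A6m libraries after 79.9, 76.6 and 89.0 TPM at E12.5. Dlk1, the paternally expressed ligand of the same interval, rose from 28.5, 36.3 and 27.1 TPM to 107, 80.7 and 93.4 TPM (log2 difference 1.58, SE 0.16, limma adjusted p = 3.98e-06), with 115, 148 and 132 TPM at P0. Gm25252, an unnamed short model in the interval, was listed at 0 in all libraries before A6m and at 7.77, 11.7 and 12.8 TPM there. Short features rest on few bases, and their levels cannot be set against those of longer genes.

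A few switched-off genes held their level at birth and were lost after it. Pde6c, a cone phosphodiesterase, read 7.63, 15.8 and 21.1 TPM at E12.5, 16.2, 19.2 and 16.1 TPM at P0, 0.333, 0.632 and 0.42 TPM at P14 and 0.164, 0.112 and 0.108 TPM at A6m. Ms4a4a, a membrane protein of macrophages, read 8.83, 8.92 and 6.06 TPM at E12.5, 7.69, 11.2 and 7.38 TPM at P0 and 0.15, 0 and 0.15 TPM at A6m. In both, the E12.5 and P0 libraries overlapped and the A6m libraries lay below them.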
